A study of Mus musculus with 10 samples.

Results

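The 49 genes described here encode the machinery that copies DNA and supplies its nucleotide building blocks. They were chosen by name as rows of a count table of 24385 gene symbols, and all 49 were present and passed the filter on low counts that left 13075 genes for testing. They comprise 6 origin recognition subunits, 3 genes of helicase loading or its control, the 6 subunits of the MCM helicase and 6 helicase activators. Further members are 4 subunits of polymerase alpha-primase, 5 of polymerases delta and epsilon and 6 of the sliding clamp and its loader. The rest are 2 enzymes of Okazaki fragment processing, 3 single-strand DNA binding subunits, 5 nucleotide enzymes and 3 factors of chromatin duplication. The cells were bone marrow-derived dendritic cells (BMDCs), antigen-presenting cells grown in culture from the marrow of female wild-type C57BL/6 mice 8 to 10 weeks old, with GM-CSF at 20 ng/mL as the growth factor. One group was exposed for 24 h to 400 µg/mL of AMLE, an apple mango leaf extract, and the other for 24 h to 0.04% DMSO, the vehicle. RNA sequencing covered 3 AMLE and 3 DMSO libraries, and ATAC sequencing, which marks open chromatin by transposase insertion, covered 2 AMLE and 2 DMSO libraries. Nothing in the labels shows whether the replicates are separate animals or cultures, and p-values cover only the spread among these libraries, which may be technical. As a model, such a culture is a mixture: GM-CSF marrow cultures also hold macrophages, granulocytes and their precursors, and the labels give no sort.

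Replication begins when the origin recognition complex marks DNA and, with Cdc6 and Cdt1, loads the ring-shaped MCM helicase in G1, a step called licensing. In S phase Cdc45 and the GINS complex join MCM to form the active helicase, polymerase alpha-primase lays down primers, the clamp loader RFC places the sliding clamp PCNA, and polymerases delta and epsilon extend the strands. Deoxynucleotides come chiefly from ribonucleotide reductase and thymidylate synthesis, many of these genes are known targets of E2F transcription factors, and in marrow-derived cultures the machinery is used by precursors that still divide, while differentiated dendritic cells divide little.

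Promoters are shown for 7 members. In each role the member with the largest change among those with an E2F-type match was taken. The 6 of these with the largest changes were kept (Cdc6, Mcm5, Uhrf1, Pola1, Lig1 and Orc1), which left out Pole2, Rfc3 and Gins3. Orc3, whose RNA did not pass the test, is shown as a counterpart. Each runs 5′ to 3′ on the gene's own strand from 250 bases before to 50 bases after the RefSeq start, in build GRCm38.p6, which is the RefSeq form of mm10. Capitals mark E2F-type matches, defined as TTTGGCGC, TTTCCCGC, TTTCGCGC or TTTGCCGC on either strand, so a match on the opposite strand appears as its reverse complement. Cdc6 lies on the plus strand at chr11:98907901-98908200 and Mcm5 on the plus strand at chr8:75109259-75109558. Uhrf1 is on the plus strand at chr17:56304063-56304362 and Pola1 on the minus strand at chrX:93632106-93632405. Lig1 is on the plus strand at chr7:13278576-13278875, Orc1 on the plus strand at chr4:108579204-108579503 and Orc3 on the minus strand at chr4:34614893-34615192.
Cdc6: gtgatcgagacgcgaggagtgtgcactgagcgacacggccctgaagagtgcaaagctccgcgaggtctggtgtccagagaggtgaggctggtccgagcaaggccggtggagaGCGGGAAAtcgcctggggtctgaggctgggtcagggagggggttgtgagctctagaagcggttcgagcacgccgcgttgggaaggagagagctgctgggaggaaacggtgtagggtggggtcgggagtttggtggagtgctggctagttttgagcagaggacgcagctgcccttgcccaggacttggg
Mcm5: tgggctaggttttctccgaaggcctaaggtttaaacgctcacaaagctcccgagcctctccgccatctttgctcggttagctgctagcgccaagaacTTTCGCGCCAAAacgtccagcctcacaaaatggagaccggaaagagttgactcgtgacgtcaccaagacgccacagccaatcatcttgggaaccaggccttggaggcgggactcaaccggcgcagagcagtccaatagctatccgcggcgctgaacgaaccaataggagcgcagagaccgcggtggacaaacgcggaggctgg
Uhrf1: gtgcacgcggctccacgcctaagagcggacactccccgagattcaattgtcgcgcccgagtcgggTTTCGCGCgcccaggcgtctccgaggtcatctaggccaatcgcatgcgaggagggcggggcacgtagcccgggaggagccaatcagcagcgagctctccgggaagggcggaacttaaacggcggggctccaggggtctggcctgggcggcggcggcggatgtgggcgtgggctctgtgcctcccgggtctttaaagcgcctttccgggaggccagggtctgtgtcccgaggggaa
Pola1: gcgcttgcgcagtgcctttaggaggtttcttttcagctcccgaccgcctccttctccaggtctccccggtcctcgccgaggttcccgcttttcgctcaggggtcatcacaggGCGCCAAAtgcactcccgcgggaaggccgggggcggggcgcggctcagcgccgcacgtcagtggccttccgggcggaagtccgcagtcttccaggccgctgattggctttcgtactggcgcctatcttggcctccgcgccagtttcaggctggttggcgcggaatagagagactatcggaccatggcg
Lig1: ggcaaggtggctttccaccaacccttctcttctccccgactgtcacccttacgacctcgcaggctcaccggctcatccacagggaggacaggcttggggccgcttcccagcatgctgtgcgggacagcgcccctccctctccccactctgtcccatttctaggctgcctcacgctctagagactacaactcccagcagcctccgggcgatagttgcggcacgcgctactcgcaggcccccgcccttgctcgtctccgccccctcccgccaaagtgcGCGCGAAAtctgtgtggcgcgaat
Orc1: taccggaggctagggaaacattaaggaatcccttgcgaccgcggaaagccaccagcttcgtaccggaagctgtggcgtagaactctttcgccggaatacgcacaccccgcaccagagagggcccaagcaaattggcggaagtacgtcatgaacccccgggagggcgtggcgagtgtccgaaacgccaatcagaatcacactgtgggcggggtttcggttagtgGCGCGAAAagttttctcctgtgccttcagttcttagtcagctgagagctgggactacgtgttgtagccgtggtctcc
Orc3: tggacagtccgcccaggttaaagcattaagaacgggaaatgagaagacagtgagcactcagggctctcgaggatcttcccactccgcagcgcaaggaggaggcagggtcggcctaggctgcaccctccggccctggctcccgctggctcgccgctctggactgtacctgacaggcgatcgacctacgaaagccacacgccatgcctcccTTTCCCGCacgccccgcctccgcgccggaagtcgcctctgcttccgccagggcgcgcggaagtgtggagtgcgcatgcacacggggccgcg
The match in Cdc6 began 138 bases before the start and is TTTCCCGC on the opposite strand. The RefSeq span of Cdc6 begins at 98907709, upstream of the printed sequence, so the printed start lies inside that span. In Mcm5 a TTTCGCGC 153 bases before the start overlapped a TTTGGCGC on the opposite strand, which gives the longer run in capitals. Lig1 was the exception in position, with its match 26 bases after the printed start. Lig1 has 3 RefSeq starts and Uhrf1 has 2, and for each only the start whose promoter held a match is printed. For both genes another start lies upstream of the printed one, and its promoter held no match. A match is a description of letters and not of a bound site.

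RNA of the replication genes was lower after AMLE almost throughout. Of the 49 members, 44 fell, 0 rose and 5 did not pass the test (Orc3, Orc4, Orc5, Gins3 and Rfc2), by edgeR's quasi-likelihood test with Benjamini-Hochberg adjustment over all tested genes at 0.05. The share that fell was 89.8% of members, against 25.6 percent of all tested genes lower and 23.0 percent higher in the same fit. At an unadjusted p below 0.05 in edgeR the number of members higher was also 0, and DESeq2 and limma-voom called 0 higher by adjusted p. By at least 2-fold, 28 members fell (57.1%) and 0 rose, against 4.40 percent of all tested genes lower and 5.52 percent higher. The median log2 fold change of the members was −1.24, which is 42.2% of the DMSO level, against −0.01 over all tested genes. All 3 AMLE libraries lay below all 3 DMSO libraries for 45 members (91.8%), the 44 that fell and Orc4, against 31.4 percent of all tested genes.

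**Figure D1:**
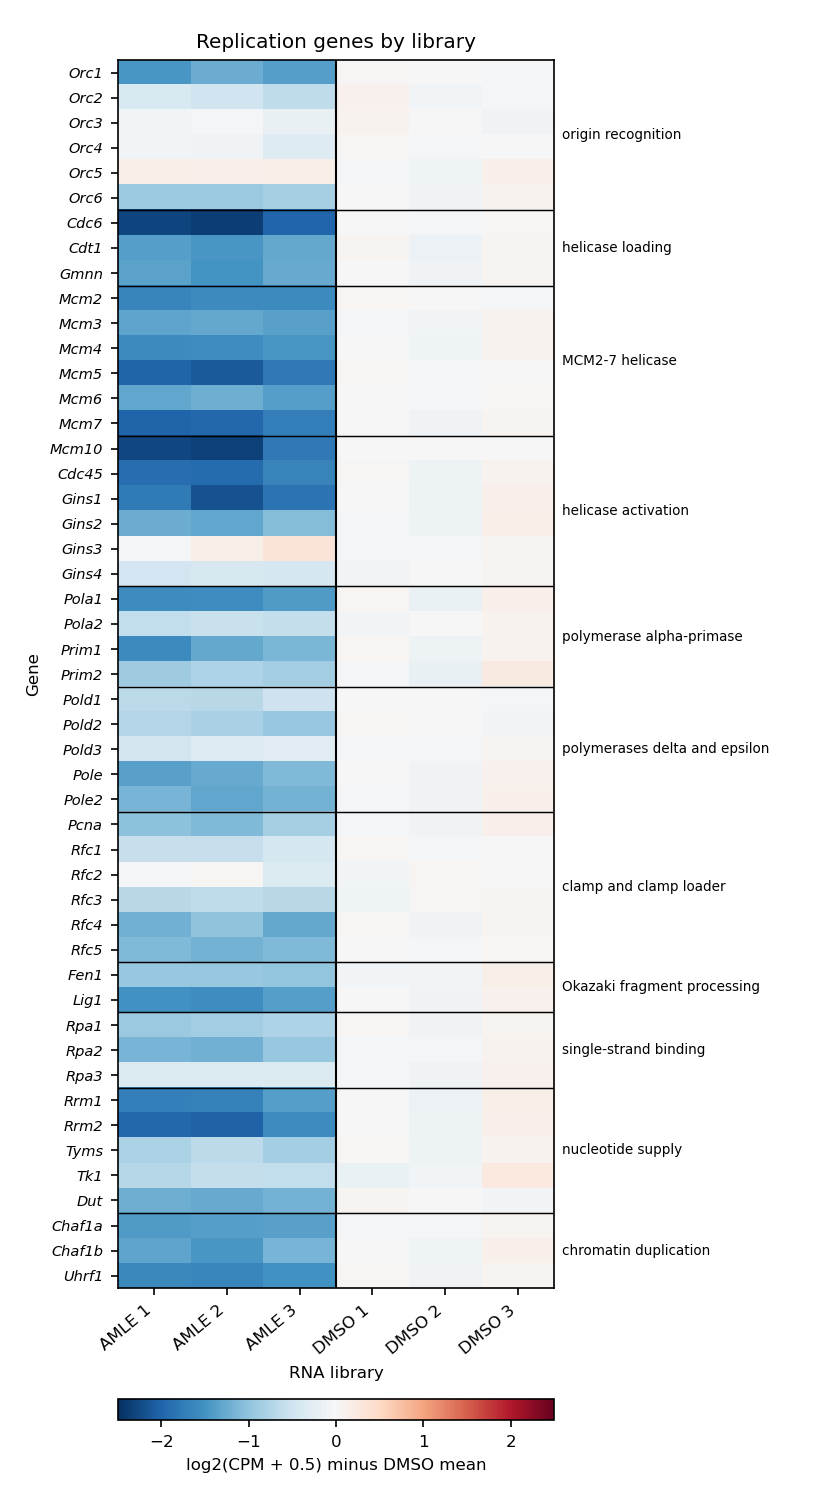
Heat map of the 49 members (rows, grouped by role) in the 3 AMLE and 3 DMSO RNA libraries (columns), as log2(CPM + 0.5) minus the DMSO mean of the gene. The median over members was −1.19, −1.23 and −1.10 in the AMLE libraries, against −0.00, −0.07 and 0.08 in the DMSO libraries, and the rows without a clear difference are Orc3, Orc4, Orc5, Gins3 and Rfc2.

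Levels are given in CPM, counts scaled by the total count of the library after its adjustment by the TMM factor (between 0.990 and 1.01 for these libraries), and a difference is always AMLE over DMSO. Total counts were 26010455, 34208286 and 26325173 in AMLE libraries, against 31413578, 28457863 and 28754835 in DMSO libraries. A member had between 68 counts (Gins1) and 6039 counts (Mcm5) in a library. Summed over the 49 members, CPM lay between 1381 and 1461 in AMLE libraries and between 2942 and 3226 in DMSO libraries, so the sums did not overlap. Libraries of a group differed by far less, and in a shared way. AMLE replicate 3 was the highest AMLE library for 27 of the 44 genes that fell. DMSO replicate 3 was the highest DMSO library for 35 of the 44, and DMSO replicate 2 the lowest for 32.

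Markers of other cells in the culture moved in the same comparison, in which 25.6 percent of all tested genes fell and 23.0 percent rose. All 9 granulocyte precursor genes fell (Mpo, Elane, Prtn3 and others), with summed CPM of 1110 to 1479 in AMLE libraries and 4376 to 6323 in DMSO libraries. Of 9 macrophage genes 5 fell and 1 rose (1058 to 1819 CPM in AMLE, 1825 to 2209.8 CPM in DMSO), where the 1 that rose, Adgre1, was not called without AMLE replicate 1 or 2 or DMSO replicate 1 or 3, and Mrc1, among those that fell, not without AMLE replicate 1. Of 5 monocyte genes 2 fell (719 to 1017 CPM in AMLE, 1318 to 1445 CPM in DMSO). Mast cell and basophil genes rose for 4 of 6 (195 to 362 CPM in AMLE, 118 to 181 CPM in DMSO), although leaving out 1 library ended the call of Mcpt8 (without AMLE replicate 1 or 2 or any DMSO replicate) and of Fcer1a (without AMLE replicate 1 or 2 or DMSO replicate 2 or 3). Lymphocyte genes were low in both groups (20.6 to 30.4 CPM in AMLE, 21.0 to 29.8 CPM in DMSO). Of 6 tested 1 fell, Nkg7 (−1.03 ± 0.24, edgeR adjusted p = 0.010), and 0 rose. The erythroid genes Hbb-bs, Hbb-bt and Hba-a1 were at 0 in every library. The dendritic cell genes were present in every library, among them Itgax at 618 to 773 CPM in AMLE and 611 to 813 CPM in DMSO, and of 10 tested 5 rose and 1 fell. The 1 that fell, H2-Ab1, was not called without AMLE replicate 1 or 2 or DMSO replicate 2 or 3. All 8 proliferation genes outside replication fell (Mki67, Top2a, Ccnb1, Cdk1, Plk1, Aurkb, Bub1 and Ccna2), with a median log2 fold change of −2.09 and summed CPM of 265 to 384 in AMLE and 1219 to 1379.95 in DMSO. The part of these shifts in the change of the replication genes was not tested, and in bulk RNA fewer cells of a type and less RNA per cell cannot be told apart.

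The origin recognition complex, the platform on which helicases are loaded, divided by subunit. Orc1, Orc2 and Orc6 fell, while Orc3, Orc4 and Orc5 did not pass the test. Orc1, the subunit whose protein in mammals is removed after G1, had 3.26, 3.88 and 3.48 CPM in AMLE libraries, against 10.1, 9.94 and 9.47 CPM in DMSO libraries. The groups were wide apart relative to their spread, and the change was 2.77-fold lower (log2 fold change −1.47 ± 0.11 SE, edgeR adjusted p = 0.0001). Orc6, the smallest subunit, had 12.7, 12.6 and 13.5 CPM in AMLE libraries, against 24.2, 23.0 and 26.0 CPM in DMSO libraries. Its groups did not overlap either (−0.92 ± 0.07, edgeR adjusted p = 0.00012). Orc2, a core subunit, fell less, by 0.51 ± 0.08 on the log2 scale (edgeR adjusted p = 0.002).

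The 3 other subunits are core members of the same complex with levels close to those of DMSO cells. Orc3 had 48.8, 50.0 and 45.0 CPM in AMLE libraries, against 54.5, 51.5 and 48.7 CPM in DMSO libraries, and the groups overlapped (−0.11 ± 0.06, edgeR adjusted p = 0.21). Orc4 had 29.1, 28.8 and 24.4 CPM in AMLE libraries, against 31.3, 29.4 and 30.7 CPM in DMSO libraries. Every AMLE value was below every DMSO value of Orc4, but by less than the fit could call (−0.15 ± 0.08, edgeR adjusted p = 0.15). Orc5 had 22.8, 22.1 and 22.7 CPM in AMLE libraries, against 20.1, 18.8 and 22.3 CPM in DMSO libraries. The DMSO replicate 3 value of Orc5 lay inside the AMLE range (0.14 ± 0.07, edgeR adjusted p = 0.16), and without that library Orc5 was called higher (0.21, edgeR adjusted p = 0.048). As a ratio within a library, which does not depend on scaling, log2 Orc1 over Orc2 was −3.07, −2.70 and −2.73 in AMLE libraries, against −1.94, −1.79 and −1.89 in DMSO libraries. The Orc1 to Orc2 ratio was thus lower in all 3 AMLE libraries, by 0.96 on average (exact two-sided permutation p = 0.1, the smallest that 3 against 3 allows).

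The 3 licensing genes that act in loading MCM or in restraining that loading all fell by more than 2-fold. Cdc6, the ATPase that joins origin-bound ORC to load MCM, had 5.36, 5.16 and 6.84 CPM in AMLE libraries, against 28.4, 27.6 and 29.1 CPM in DMSO libraries. No AMLE value came near the DMSO range, and the mean of 5.79 ± 0.916 CPM in AMLE against 28.3 ± 0.757 CPM in DMSO (SD, n = 3 each) was 4.91-fold lower (−2.30 ± 0.11, edgeR adjusted p = 3e-05). Cdc6 had the lowest log2 fold change of the 49 and ranked 58 from the bottom of the 13075 tested genes. Cdt1, its partner in loading, had 17.4, 16.5 and 18.7 CPM in AMLE libraries, against 48.2, 41.5 and 48.1 CPM in DMSO libraries. Gmnn encodes geminin, the inhibitor that binds Cdt1 and prevents relicensing, and had 14.5, 12.98 and 15.4 CPM in AMLE libraries, against 37.5, 35.3 and 39.4 CPM in DMSO libraries. Neither gene's groups overlapped, and activator and inhibitor fell by the same amount on the log2 scale (−1.39 ± 0.08 for each, edgeR adjusted p = 5.8e-05 for Cdt1 and 5.4e-05 for Gmnn).

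Set against each other within a library, log2 Cdt1 over Gmnn was 0.26, 0.34 and 0.28 in AMLE libraries, against 0.36, 0.24 and 0.29 in DMSO libraries. These ratios overlapped (exact two-sided permutation p = 1.0), so no shift of the loading factor against its inhibitor was detectable among 6 libraries.

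All 6 subunits of the MCM helicase, the ring that unwinds DNA ahead of the polymerases, fell by more than 2-fold, with log2 fold changes between −1.97 and −1.31 and a median of −1.58. Their summed CPM was 286 to 300.5 in AMLE libraries, against 847 to 906 in DMSO libraries. Mcm5 had 46.4, 43.4 and 53.8 CPM in AMLE libraries, against 192, 182 and 189 CPM in DMSO libraries. The highest AMLE value of Mcm5 was far under the lowest DMSO value (3.92-fold lower, −1.97 ± 0.08, edgeR adjusted p = 2.9e-05). Mcm7 had 31.8, 33.0 and 38.7 CPM in AMLE libraries, against 131, 122 and 137 CPM in DMSO libraries, likewise without overlap (−1.91 ± 0.09, edgeR adjusted p = 2.9e-05). Mcm6 changed least among the subunits, with 69.9, 73.9 and 66.2 CPM in AMLE libraries, against 176, 167 and 178 CPM in DMSO libraries. Even there the groups stood well apart (2.48-fold lower, −1.31 ± 0.06, edgeR adjusted p = 2.9e-05). Mcm2, Mcm3 and Mcm4 fell by 1.63, 1.32 and 1.54 on the log2 scale.

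Helicase activators fell with 1 exception. Mcm10, which is needed for the assembled helicase to start unwinding, had 7.18, 6.89 and 10.3 CPM in AMLE libraries, against 36.2, 36.7 and 37.1 CPM in DMSO libraries. AMLE replicate 3 was the highest of its group but still far below DMSO (4.54-fold lower, −2.18 ± 0.14, edgeR adjusted p = 8.6e-05). Gins1, a subunit of the GINS complex that bridges MCM and Cdc45, had 2.80, 1.98 and 2.60 CPM in AMLE libraries, against 10.7, 9.69 and 11.8 CPM in DMSO libraries. Its count of 68 in a library was the lowest of any member, and its groups did not overlap (4.39-fold lower, −2.13 ± 0.15, edgeR adjusted p = 0.0001). Cdc45, the third component of the active helicase, fell by 1.88 ± 0.10 on the log2 scale (edgeR adjusted p = 3.2e-05).

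Within GINS the subunits moved unequally. Gins2 fell by 1.25 ± 0.10 (edgeR adjusted p = 0.00015) and Gins4 by 0.45 ± 0.06 (edgeR adjusted p = 0.0011) on the log2 scale. Gins3 had 17.6, 20.0 and 23.0 CPM in AMLE libraries, against 17.7, 17.8 and 19.0 CPM in DMSO libraries. The AMLE values of Gins3 spread across and above the DMSO range, and the difference did not pass the test (0.15 ± 0.10, edgeR adjusted p = 0.25).

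**Figure D2:**
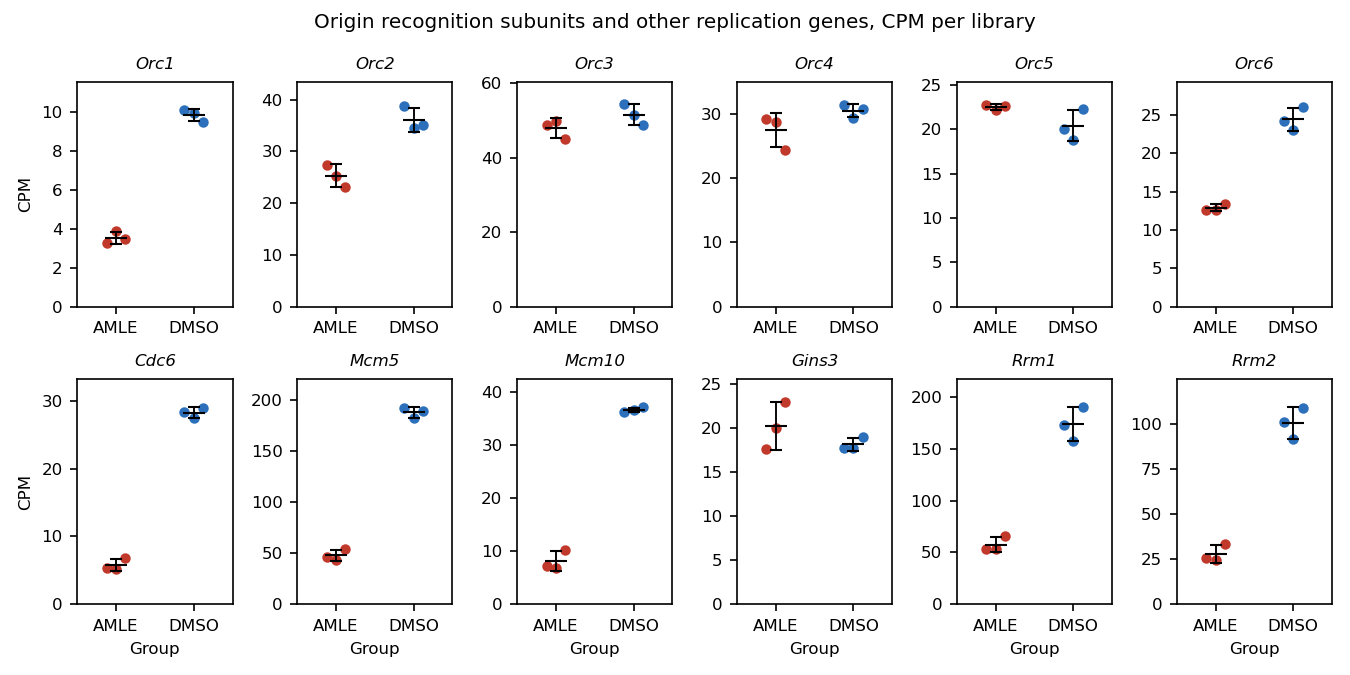
CPM (vertical axis, linear, from 0) of 12 members in each RNA library, with 3 AMLE points left of 3 DMSO points and bars for the mean ± SD (n = 3 each). Orc1, Orc6, Cdc6, Mcm5, Mcm10, Rrm1 and Rrm2 show separated groups, while the points of Orc3, Orc5 and Gins3 overlap.

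Polymerase alpha-primase makes the RNA-DNA primers, and its 4 subunits all fell. Pola1, the catalytic polymerase subunit, had 12.2, 12.4 and 13.6 CPM in AMLE libraries, against 38.4, 33.2 and 40.7 CPM in DMSO libraries. Its AMLE values were tightly grouped under the DMSO range (2.94-fold lower, −1.56 ± 0.09, edgeR adjusted p = 5.8e-05). Prim1, the catalytic primase, had 6.91, 8.64 and 9.55 CPM in AMLE libraries, against 22.3, 19.8 and 23.2 CPM in DMSO libraries, also without overlap (−1.38 ± 0.13, edgeR adjusted p = 0.00021). Pola2, the accessory subunit, had 37.5, 39.5 and 38.2 CPM in AMLE libraries, against 55.1, 57.8 and 61.2 CPM in DMSO libraries. Its change was the least of the complex (1.51-fold lower, −0.59 ± 0.06, edgeR adjusted p = 0.00025), and that of Prim2, the large primase subunit, was −0.88 ± 0.11 (edgeR adjusted p = 0.00079).

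The elongating polymerases fell less. Pole, the catalytic subunit of the leading-strand polymerase epsilon, had 17.9, 19.1 and 21.5 CPM in AMLE libraries, against 46.5, 43.6 and 49.9 CPM in DMSO libraries. Pole2, its second subunit, had 4.97, 4.49 and 4.89 CPM in AMLE libraries, against 11.6, 11.0 and 12.9 CPM in DMSO libraries. Pole and Pole2 each fell by more than 2-fold with no overlap (−1.26 ± 0.09 for Pole and −1.31 ± 0.10 for Pole2, edgeR adjusted p = 8.3e-05 and 0.00012). The epsilon subunits Pole3 and Pole4, which are not among the members, fell by 0.69 and 0.22 on the log2 scale. Of polymerase delta, the lagging-strand polymerase, the 3 subunits among the members fell by less than 2-fold. Its subunit Pold4, not among the members, rose (0.33 ± 0.10, edgeR adjusted p = 0.025), a call lost when some single libraries were left out. Pold3, an accessory subunit, had 40.9, 45.4 and 46.7 CPM in AMLE libraries, against 55.7, 55.3 and 59.4 CPM in DMSO libraries. This was the smallest decrease among the 44 members that fell, and the groups still did not overlap (1.28-fold lower, −0.36 ± 0.06, edgeR adjusted p = 0.0036). The catalytic Pold1 and the accessory Pold2 fell by 0.63 and 0.84 on the log2 scale.

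The clamp loader, which opens the clamp and places it on DNA, also divided by subunit. Rfc4 had 6.06, 6.97 and 5.65 CPM in AMLE libraries, against 14.7, 13.6 and 15.2 CPM in DMSO libraries, and Rfc5 had 19.8, 18.6 and 19.8 CPM in AMLE libraries, against 42.3, 42.0 and 44.0 CPM in DMSO libraries. Both of these small loader subunits fell by more than 2-fold without overlap (−1.22 ± 0.10 for Rfc4 and −1.15 ± 0.06 for Rfc5, edgeR adjusted p = 0.00016 and 3.1e-05). Rfc1, the large subunit, fell by 0.53 and Rfc3 by 0.70 on the log2 scale. Rfc2 had 62.7, 66.5 and 50.8 CPM in AMLE libraries, against 62.0, 67.1 and 65.4 CPM in DMSO libraries. Only AMLE replicate 3 of Rfc2 lay outside the DMSO range (−0.11 ± 0.10, edgeR adjusted p = 0.38), and without that library the log2 fold change was 0.0088.

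Pcna, the sliding clamp itself, had 87.2, 83.2 and 100.1 CPM in AMLE libraries, against 174, 168 and 194 CPM in DMSO libraries. The groups did not overlap (1.98-fold lower, −0.99 ± 0.09, edgeR adjusted p = 0.00018). Within a library, log2 Pcna over Rfc1 was 0.58, 0.52 and 0.65 in AMLE libraries, against 0.97, 0.98 and 1.16 in DMSO libraries. The clamp was thus lower relative to the large loader subunit in all 3 AMLE libraries (difference −0.45, exact two-sided permutation p = 0.1, the smallest possible).

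Both Okazaki fragment enzymes fell. Lig1, the ligase that seals the fragments, had 26.1, 25.5 and 28.7 CPM in AMLE libraries, against 74.8, 70.7 and 81.4 CPM in DMSO libraries. Fen1, the nuclease that trims the flap, had 44.1, 44.5 and 42.9 CPM in AMLE libraries, against 81.9, 81.4 and 94.5 CPM in DMSO libraries. Neither overlapped, with Lig1 2.83-fold lower (−1.50 ± 0.07) and Fen1 1.96-fold lower (−0.97 ± 0.07), at edgeR adjusted p of 3.2e-05 and 9.2e-05.

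RPA, which coats exposed single-stranded DNA, fell by different amounts in its 3 subunits. Rpa1, the large subunit, had 56.9, 59.2 and 63.5 CPM in AMLE libraries, against 110.3, 102 and 113 CPM in DMSO libraries. Rpa2, the middle subunit, had 17.2, 16.7 and 20.0 CPM in AMLE libraries, against 37.5, 38.1 and 41.7 CPM in DMSO libraries. Rpa3, the small subunit, had 11.4, 11.5 and 11.4 CPM in AMLE libraries, against 14.6, 14.0 and 16.0 CPM in DMSO libraries. None of the 3 overlapped between groups, and the log2 fold changes were −0.86 ± 0.06, −1.13 ± 0.09 and −0.38 ± 0.08 in that order (edgeR adjusted p = 0.0001, 0.00012 and 0.0056).

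In nucleotide supply all 5 enzymes fell, and ribonucleotide reductase, which makes deoxynucleotides from ribonucleotides, fell most. Rrm1, the large catalytic subunit, had 53.05, 53.3 and 66.4 CPM in AMLE libraries, against 174, 158 and 191 CPM in DMSO libraries. Rrm2, the small radical-bearing subunit whose protein is restricted to S phase and G2, had 25.4, 24.4 and 33.3 CPM in AMLE libraries, against 101, 91.3 and 109 CPM in DMSO libraries. Replicate 3 was the highest library of both groups for both genes, and the groups were far apart (3.03-fold lower for Rrm1, −1.60 ± 0.11, and 3.63-fold lower for Rrm2, −1.86 ± 0.13, edgeR adjusted p = 0.0001 and 0.00011). Tk1, the thymidine kinase of the salvage route, had 28.1, 30.6 and 30.3 CPM in AMLE libraries, against 41.4, 44.2 and 55.3 CPM in DMSO libraries. The DMSO values of Tk1 were spread more widely, and its decrease was the least of the 5 (1.58-fold lower, −0.66 ± 0.11, edgeR adjusted p = 0.0027). Dut, which hydrolyses dUTP, fell by 1.24 ± 0.06 and Tyms, the thymidylate synthase, by 0.77 ± 0.08 on the log2 scale.

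Rrm2 also fell relative to its partners. Log2 Rrm2 over Rrm1 was −1.06, −1.13 and −0.99 in AMLE libraries, against −0.78, −0.79 and −0.81 in DMSO libraries. Rrm2b is the alternative small subunit, known as a p53 target that serves cells outside S phase, and 1 of the few related genes that rose (18.4, 19.5 and 19.3 CPM in AMLE libraries, against 17.0, 16.0 and 15.1 CPM in DMSO libraries, 0.25 ± 0.07, edgeR adjusted p = 0.021). That call was lost without AMLE replicate 2, DMSO replicate 2 or DMSO replicate 3 (adjusted p between 0.061 and 0.071). Rrm2 counts were 1.38, 1.25 and 1.73 times those of Rrm2b in AMLE libraries, against 5.92, 5.70 and 7.21 times in DMSO libraries. Both ratios were lower in all 3 AMLE libraries, by 0.27 and 2.12 on the log2 scale, each with the smallest exact two-sided permutation p possible, 0.1.

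**Figure D3:**
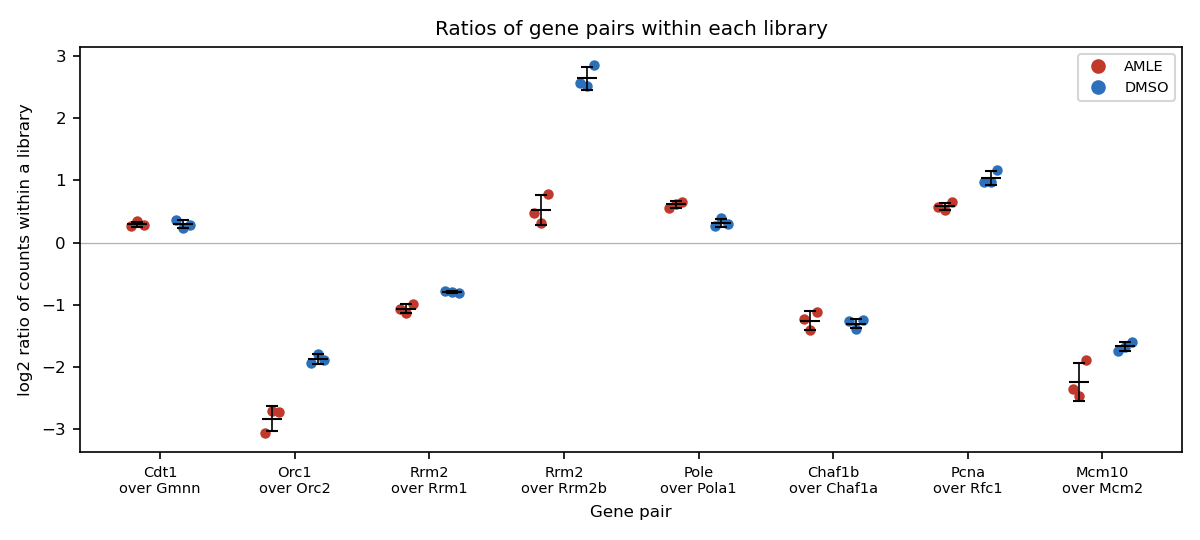
Log2 ratio of the counts of 2 genes within a library (vertical axis) for 8 pairs, with 3 AMLE points left of 3 DMSO points and bars for the mean ± SD (n = 3 each). Cdt1 over Gmnn and Chaf1b over Chaf1a overlap between groups, and the other 6 pairs do not, with the widest separation for Rrm2 over Rrm2b.

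Genes that rebuild chromatin behind the fork fell together. Uhrf1, which brings maintenance methylation to newly copied DNA, had 45.1, 44.3 and 48.4 CPM in AMLE libraries, against 142, 130.1 and 145 CPM in DMSO libraries. The change was 3.02-fold with little spread (−1.60 ± 0.06, edgeR adjusted p = 2.9e-05). Chaf1a had 25.1, 25.7 and 25.9 CPM in AMLE libraries, against 65.4, 66.1 and 71.2 CPM in DMSO libraries, and Chaf1b had 10.7, 9.66 and 11.9 CPM in AMLE libraries, against 27.1, 25.2 and 29.9 CPM in DMSO libraries. These subunits of CAF-1, which deposits histones on new DNA, were separated by group (−1.40 ± 0.05 and −1.35 ± 0.10, edgeR adjusted p = 2.9e-05 and 0.00011), while their ratio to each other within a library overlapped between groups.

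By role, the median log2 fold change was −1.58 for the MCM helicase, −1.56 for helicase activation, −1.40 for chromatin duplication and −1.39 for helicase loading. It was −1.24 for nucleotide supply and for Okazaki fragment processing, −1.13 for polymerase alpha-primase, −0.86 for single-strand binding, −0.84 for polymerases delta and epsilon and for the clamp and its loader, and −0.33 for origin recognition. All 6 MCM, 3 loading and 3 chromatin genes fell by at least 2-fold. By the same measure, 1 of 6 origin recognition genes, 2 of 5 genes of polymerases delta and epsilon and 2 of 6 clamp and loader genes did. The differences between roles were not tested, since the genes of a role are not replicates. Of the 8 ratios computed, the 6 without overlap (among them log2 Pole over Pola1, higher by 0.29, and log2 Mcm10 over Mcm2, lower by 0.57) each had a Benjamini-Hochberg adjusted permutation p of 0.133. With libraries paired by replicate number, an exact sign-flip test gave p = 0.25 for each of these 6, the smallest that test allows.

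**Figure D4:**
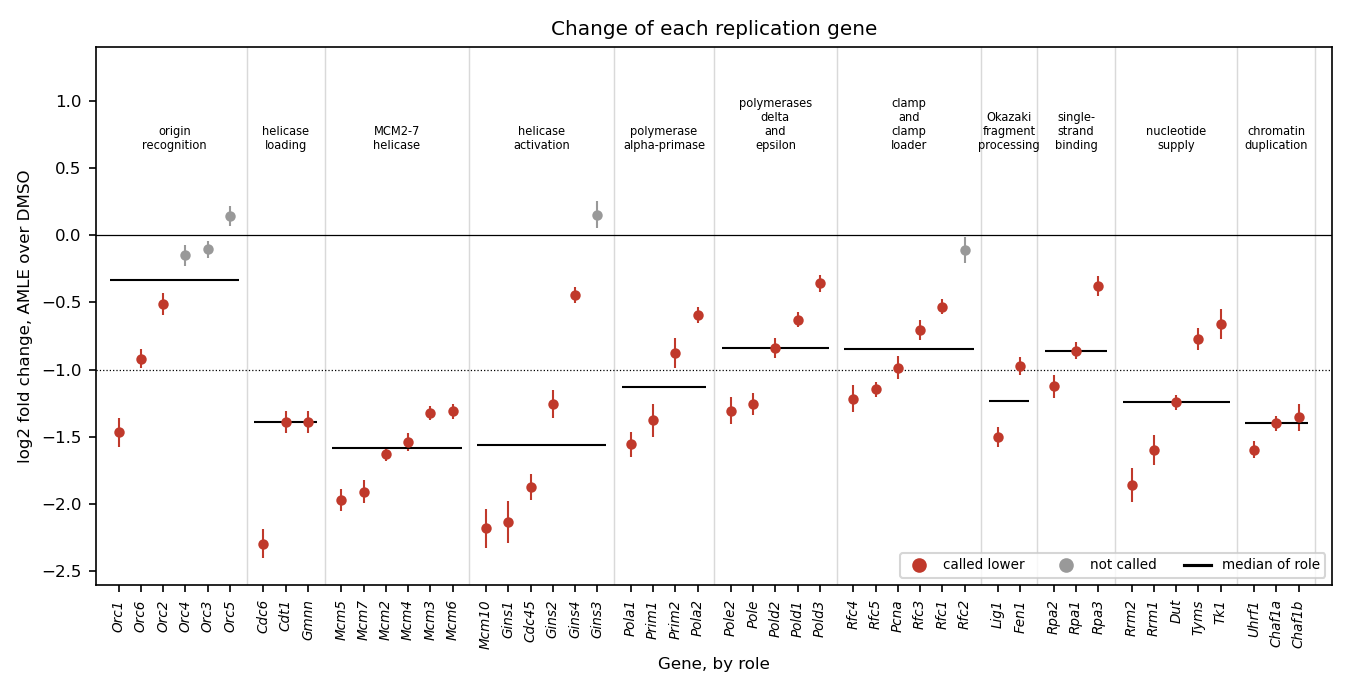
Log2 fold change of AMLE over DMSO (vertical axis) with its approximate SE for each of the 49 members, arranged by role. Red points fell by edgeR's test, grey points did not pass it, the black line is the median of the role and the dotted line marks 2-fold lower. The points run from −2.30 (Cdc6) to 0.15 (Gins3), and all 5 grey points lie near 0.

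Other genes of the same pathways, taken from lists compiled outside the 49, moved likewise. Of 76 tested, 59 fell (77.6%), 5 rose and 12 did not pass the test, with a median log2 fold change of −0.73. Over all tested genes 25.6 percent were lower and 23.0 percent higher. Among 12 genes of origin firing and regulation 8 fell, led by Cdc7, the kinase that fires licensed origins, with 7.77, 7.41 and 9.86 CPM in AMLE libraries, against 25.9, 22.7 and 26.4 CPM in DMSO libraries (−1.59 ± 0.12, edgeR adjusted p = 0.00012). Among 19 fork accessory genes 15 fell, of which Pole4 was not called without AMLE replicate 1 or DMSO replicate 1 or 2. They were led by Dscc1, a subunit of an alternative clamp loader, at 0.932, 0.759 and 0.993 CPM in AMLE libraries and 3.97, 3.76 and 4.34 CPM in DMSO libraries (−2.17 ± 0.17, edgeR adjusted p = 0.00013). Neither gene's groups overlapped. Of 11 further chromatin duplication genes all 11 fell, with Asf1b, a histone chaperone, at 14.3, 12.8 and 18.1 CPM in AMLE libraries and 57.4, 55.7 and 69.3 CPM in DMSO libraries (−2.02 ± 0.15, edgeR adjusted p = 0.00012).

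In dNTP and folate supply 9 of 16 genes fell and 3 rose, against 25.6 percent of all tested genes lower and 23.0 percent higher. The share that rose was thus not above that of all tested genes. Samhd1, the enzyme that degrades dNTPs in non-dividing cells, was among those that rose, with 910.2, 1005 and 817 CPM in AMLE libraries, against 659.8, 658 and 622 CPM in DMSO libraries. Every AMLE value of Samhd1 was above every DMSO value (1.41-fold higher, 0.49 ± 0.08, edgeR adjusted p = 0.0024). The third gene that rose besides Samhd1 and Rrm2b was Dguok, a mitochondrial deoxyguanosine kinase (0.22 ± 0.06, edgeR adjusted p = 0.025), a call lost without AMLE replicate 1 or 2 or DMSO replicate 1 or 3. Dctd, the dCMP deaminase, was not called (−0.82 ± 0.32, edgeR adjusted p = 0.071), but was with replicate number as a block (adjusted p = 0.0026).

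De novo base synthesis fell by less, in a fit where 25.6 percent of all tested genes were lower and 23.0 percent higher. All 6 pyrimidine genes fell (median −0.69), led by Umps, which makes UMP, at 21.7, 20.9 and 26.4 CPM in AMLE libraries and 59.0, 59.4 and 54.5 CPM in DMSO libraries (−1.33 ± 0.09, edgeR adjusted p = 9.7e-05). Of 12 purine genes 10 fell (median −0.56), led by Ppat, the first committed enzyme, at 18.1, 19.5 and 16.7 CPM in AMLE libraries and 35.6, 33.9 and 30.8 CPM in DMSO libraries (−0.88 ± 0.08, edgeR adjusted p = 0.00023). Impdh1, among the 10, was not called without any 1 of the AMLE libraries, DMSO replicate 1 or DMSO replicate 2, with DESeq2 or with RLE size factors. Outside nucleotide supply, 2 genes rose. Mcm9, an MCM paralog with a role in repair, had 13.8, 14.4 and 14.6 CPM in AMLE libraries, against 12.2, 12.4 and 12.5 CPM in DMSO libraries (0.21 ± 0.06, edgeR adjusted p = 0.032). Pold4, the small polymerase delta subunit, had 12.0, 11.1 and 10.2 CPM in AMLE libraries, against 8.23, 8.85 and 9.37 CPM in DMSO libraries (0.33 ± 0.10, edgeR adjusted p = 0.025). Neither overlapped, but both calls were lost when 1 library was left out: Mcm9 without AMLE replicate 2 or 3 or any DMSO replicate, and Pold4 without replicate 1 or 2 of either group.

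The ATAC peak lists were read at the starts of the members that have a RefSeq promoter entry, 41 of 49. The others are Gmnn, Mcm4, Gins1, Gins2, Gins4, Prim2, Pole and Rfc2. A member was counted as having a promoter peak where the authors' list for that library held an interval overlapping the stretch from 1000 bases before to 500 after a start. By library, 35 and 36 of the 41 had one in AMLE and 37 and 36 in DMSO, which is 85.4% and 87.8% in AMLE and 90.2% and 87.8% in DMSO. The shares over all tested genes with an entry were 72.4 and 72.2 percent in AMLE and 73.9 and 76.3 percent in DMSO. In all 4 libraries 33 members had one (80.5%), against 67.1 percent of tested genes. The lists held 15805 and 15597 intervals for AMLE and 18460 and 19225 for DMSO, and with 2 libraries a group no test of a difference was made.

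Promoter peaks were listed in both groups for most members, whether or not their RNA fell. Of the 37 members with an entry whose RNA fell, 30 (81.1%) had a promoter peak in all 4 libraries, close to the 80.5% of all 41 members, as did 3 of the 4 that did not pass the RNA test. Cdc6 had peaks with the authors' fold enrichment of 17.9 and 16.6 in AMLE libraries, against 18.3 and 22.5 in DMSO libraries. Counted from the printed start, their summits lay at −457 and −461 bases in AMLE, and at −455 and −463 bases in DMSO. That is upstream of the sequence printed above and near where the RefSeq span of Cdc6 begins. Mcm5 had peaks of fold enrichment 12.1 and 12.6 in AMLE libraries, against 12.7 and 14.7 in DMSO libraries. Over members with a peak the median fold enrichment was 11.4 and 11.7 in AMLE and 12.4 and 13.7 in DMSO, and over all tested genes 9.96 and 10.1 in AMLE and 10.4 and 12.0 in DMSO. These values are the authors' own for each peak, set within lists called separately, so a difference between lists is not a measured change in accessibility.

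The 8 members without a promoter peak in all 4 libraries came from several roles. Prim1, Rrm2 and Tk1 had no promoter peak in any library, as had 20.4 percent of tested genes. Tyms had one in DMSO replicate 1 alone, so of the 5 nucleotide enzymes only Rrm1 and Dut had one in all 4 libraries. Chaf1a had a peak in AMLE replicate 1 and DMSO replicate 2. Mcm2 lacked one in DMSO replicate 2, and Mcm10 and Gins3 lacked one in AMLE replicate 1. A missing entry in a list of called peaks says only that no peak passed the authors' threshold there.

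E2F-type letters were found in 16 of the 41 member promoters (39.0%), against 4.56 percent of tested genes with an entry and 2.61% of the 27025 genes in the RefSeq promoter table. The 16 were Orc1, Orc3, Cdc6, Cdt1, Mcm3, Mcm5, Mcm6, Mcm7, Gins3, Pola1, Pold1, Pold3, Pole2, Rfc3, Lig1 and Uhrf1, with 22 matches between 185 bases before and 39 bases after a start. By RNA change, the matches were in 11 of 23 members that fell by at least 2-fold, 3 of 14 that fell by less and 2 of 4 that did not pass the test, Orc3 and Gins3. CCAAT (NF-Y type) was in 25 promoters (61.0%), against 42.7 percent of tested genes, and GGGCGG (SP type) in 32 (78.0%), against 67.0 percent. TTTGAA (CHR type) was in 5 (12.2%), against 14.5 percent. These were searched on both strands with overlaps allowed, and the share of members says nothing of the factors that bind.

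For 14 of the 16 members (87.5%) an E2F-type match lay inside a peak in all 4 libraries, against 280 of the 455 tested genes with such a match (61.5%). The Gins3 match lay in a peak in 3 libraries. The Cdc6 match lay in none, because the Cdc6 peak ended upstream of it, and the match lies inside the RefSeq span of the gene. Mcm5, Uhrf1, Pola1, Lig1, Orc1 and Orc3 belong to the 14, so the capitals printed for them lay within called open chromatin in both AMLE and DMSO cells. The RNA of these genes fell, except that of Orc3, which did not pass the test.

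**Figure D5:**
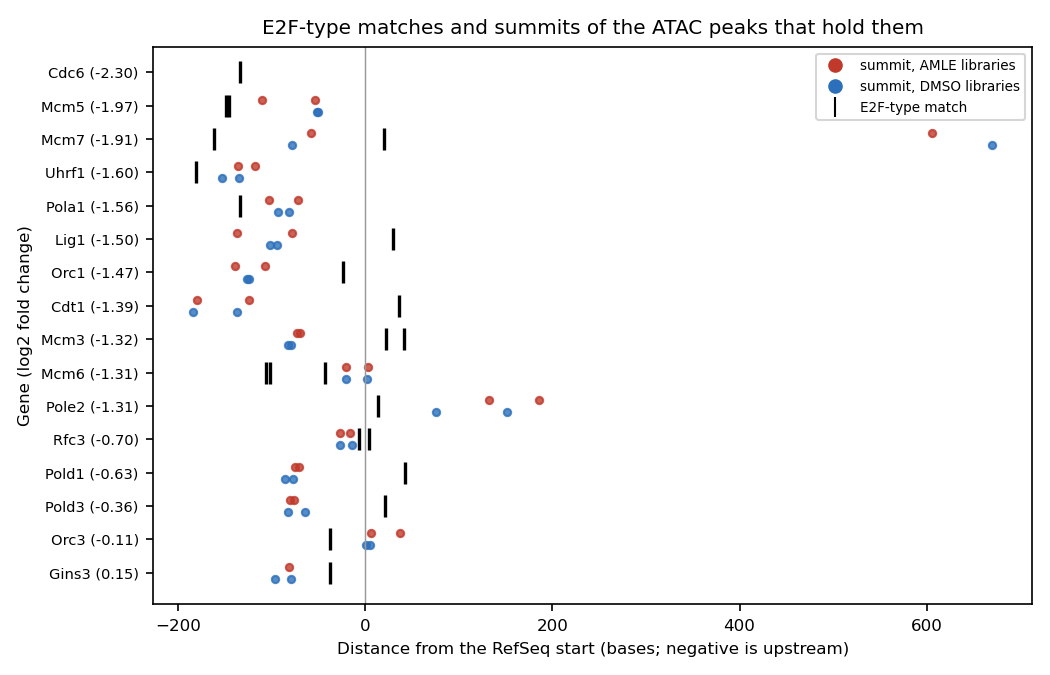
Positions of E2F-type matches (black ticks) and of the summits of the peaks that held them (red for the 2 AMLE libraries, blue for the 2 DMSO libraries), in bases from the RefSeq start, for the 16 members with a match. Cdc6 has no summit drawn because no peak covered its match, and Mcm7 has 1 AMLE summit at 606 bases and 1 DMSO summit at 670 bases after the start, with the others near the start. Mcm7 has 2 RefSeq starts, and the far AMLE and DMSO summits lie at −11 and 53 bases from the downstream start. For the other members red and blue summits fall in the same region.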

How the data were processed

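The authors deposited raw read counts per gene symbol from stranded TruSeq mRNA libraries, per the labels, and 1 ATAC peak list per library with a fold enrichment (a ratio) and a −log10 q-value for each peak. Tools listed without roles in the submitters' processing notes are Bowtie2 2.4.4, STAR 2.7.11b, MACS3 3.0.0a7, Trim Galore 0.6.7, HOMER, SAMtools 1.7, ChIPseeker 1.30.0, FastQC, deepTools 3.5.1 and Picard, with the mouse build mm10. Not given in the sources used here were the counting tool, strand setting, annotation and peak settings. Reads of overlapping genes may therefore be shared: the spans of 19 members overlap another gene (Orc1, Orc3, Orc4, Orc5, Mcm7, Cdc45, Gins1, Gins2, Pola1, Prim2, Pold2, Pole, Pole2, Rfc4, Fen1, Lig1, Rpa1, Tk1 and Chaf1a). Pcna and Tyms have pseudogenes that carry their symbol. The counts of all these genes are uncertain. Pseudogenes under other names were not searched for any member. The consensus peak lists were not used here.

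Counts of all 6 RNA libraries were fitted in R 4.3.3 with edgeR 4.0.16 (quasi-likelihood test, group as the only term, TMM factors, filterByExpr with a minimum count of 10, two-sided, Benjamini-Hochberg over 13075 genes, threshold 0.05), after tests on simulated data. The SE of a log2 fold change is its size divided by the square root of F, and is approximate. Ratios of gene pairs used log2((count + 0.5) / (count + 0.5)) and an exact permutation test. Groups and replicate numbers came from the sample titles. Same-numbered libraries deviated together (correlations 0.29, 0.28 and 0.43), a pairing that comes from the data and not from the labels. Reported tests are unpaired unless stated. The pairing was used only in alternatives: the replicate block and, for ratios, an exact sign-flip test of the paired differences. Alternatives were DESeq2 1.42.0, voom in limma 3.58.1, RLE size factors, no filter, the replicate block, leaving out each library or both numbered 3, and for peaks other thresholds, windows and overlaps. The members, the lists of related and marker genes and the tests were chosen with earlier results of these data known. The genes given in each library were, per role, the 2 members with the largest change and the 1 with the smallest, and per related list the called gene with the largest change in each direction. One gene that this rule picks is not reported here. Orc4, Orc5, Pcna, Rrm2b, Dguok and Dctd were added after their values were seen. Promoter sequences are from RefSeq, with 41 members matched by symbol.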

Additional observations from a re-analysis of the deposited data

How the results depend on the processing

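The count of 44 members lower was the same under all 12 alternatives, including the replicate block (44 lower, 0 higher), which changed no call of a member. Among related genes it added Dctd to the calls, as did DESeq2 and leaving out both libraries numbered 3, while Impdh1 and Pole4 were lost with DESeq2, Impdh1 with RLE size factors, and Mcm9 with DESeq2 (adjusted p = 0.066) and without the filter (adjusted p = 0.071). The members lower by at least 2-fold numbered 28 to 30 and their median log2 fold change lay between −1.26 and −1.18 when a library was left out. The count of members higher was 0 to 1 when a library was left out and 1 without both libraries numbered 3, in each case Orc5. The log2 fold change of Rfc2 lay between −0.19 and 0.0088 when a library was left out, turning positive without AMLE replicate 3, and was 0.015 without both libraries numbered 3; the cause was not tested. The Cdt1 over Gmnn difference was between −0.028 and 0.036 and the Chaf1b over Chaf1a difference between −0.019 and 0.13 when a library was left out. Members with a promoter peak in all libraries numbered 32 to 35. Promoter peaks have 2 libraries a group and no counts, so small differences in accessibility were not detectable. The SE of a member's log2 fold change was at most 0.154 (Gins1).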

Other observations

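Genes known as p53 targets moved opposite to the replication genes. All 7 that were listed rose, with a median log2 fold change of 0.56, against 23.0 percent of tested genes higher. Cdkn1a, the cyclin-dependent kinase inhibitor p21, had 1039, 1075 and 844 CPM in AMLE libraries, against 515, 560.5 and 492 CPM in DMSO libraries. Mdm2, the ubiquitin ligase of p53, had 255, 248 and 239 CPM in AMLE libraries, against 135, 141 and 121 CPM in DMSO libraries. For both genes every AMLE value was above every DMSO value. Of 10 ribosomal protein genes, taken as abundant genes outside the cell cycle, 5 fell and 0 rose, against 25.6 percent of tested genes lower. Their median log2 fold change was −0.16. The call of Rps3 was lost with RLE size factors and without any 1 of the libraries, and that of Rpl4 without DMSO replicate 2.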
